A study of Mus musculus with 6 samples.

Results

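A set of 10 mouse genes of inflammatory signalling was followed in iWAT, inguinal white adipose tissue, a fat depot under the skin of the groin. It holds Ptx3, which encodes the secreted pattern-recognition protein pentraxin 3, the cytokine genes Il6, Lif, Il1b and Tnf, the antagonist gene Il1rn, and the feedback genes Nfkbia, Tnfaip3, Socs3 and Zfp36. The 10 genes were chosen by their symbols after their levels in Atf4AKO and Atf4WT libraries had been seen, so the difference between these groups was used in choosing them. Their values are therefore given as a description, without a test. All 10 had a row among the 23997 gene symbols of the deposited table.

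The libraries came from 2 genotypes, with 3 libraries each. Atf4AKO mice carried floxed Atf4 and a Cre recombinase driven by Adipoq, the adiponectin gene, which is active in adipocytes. Atf4WT mice carried floxed Atf4 without Cre. Both genotypes were housed at 22 °C, then kept at 5 °C for 12 h, so every library is from cold-exposed tissue and none shows a response to cold itself. The labels do not give sex, age or litter, nor whether a library is 1 animal or a pool, so SD and p-values measure the spread between libraries only. Levels are those of the whole pad, in FPKM, fragments scaled to the length of the transcript and to sequencing depth. In bulk tissue, fewer cells of a type and less RNA per cell cannot be told apart. Deletion is directed to adipocytes, while the pad also holds macrophages, fibroblasts, vessel cells and others. Atf4 itself was at 152.1, 140.2 and 114.1 FPKM in the Atf4AKO libraries, against 257.6, 323 and 316.9 FPKM in the Atf4WT libraries, so every library went with its label.

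NF-kB is a family of transcription factors that rest in the cytoplasm, bound by IkB proteins. Signals from the IL-1 receptor, TNF receptors and Toll-like receptors activate the IKK complex, which marks IkB for destruction and frees NF-kB to enter the nucleus. Among the genes it then induces are cytokines and also its own brakes: Nfkbia encodes IkB-alpha, which binds NF-kB again, and Tnfaip3 encodes A20, a ubiquitin-editing enzyme that shuts down signalling above IKK. IL-6 and LIF signal through the shared chain gp130 and the kinase JAK to STAT3, and STAT3 induces Socs3, an inhibitor of gp130 and JAK. Zfp36 encodes tristetraprolin, which binds AU-rich elements in cytokine messenger RNAs and speeds their decay. In adipose tissue these genes are active in adipocytes, macrophages and stromal cells.

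The promoters of these genes carry different regulatory motifs, and the 6 that bear on the members described at length below are shown. Promoters were taken from RefSeq (GRCm38.p6) as 250 bases before and 50 after the annotated start, 13 windows for the 10 genes. Capitals mark the kappaB consensus of 10 bases in the first 4, the STAT motif TTCNNNGAA in Socs3, and a CArG box (the serum response element core) followed by a STAT motif in Zfp36. Both strands were searched.
Ptx3, chr3:66219637-66219936, plus strand: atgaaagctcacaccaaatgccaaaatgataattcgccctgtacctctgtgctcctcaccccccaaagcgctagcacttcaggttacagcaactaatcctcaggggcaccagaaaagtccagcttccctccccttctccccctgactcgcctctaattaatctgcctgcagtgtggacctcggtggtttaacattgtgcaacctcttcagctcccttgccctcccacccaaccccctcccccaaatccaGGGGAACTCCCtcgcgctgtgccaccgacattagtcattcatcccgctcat
Il6, chr5:30012864-30013163, plus strand: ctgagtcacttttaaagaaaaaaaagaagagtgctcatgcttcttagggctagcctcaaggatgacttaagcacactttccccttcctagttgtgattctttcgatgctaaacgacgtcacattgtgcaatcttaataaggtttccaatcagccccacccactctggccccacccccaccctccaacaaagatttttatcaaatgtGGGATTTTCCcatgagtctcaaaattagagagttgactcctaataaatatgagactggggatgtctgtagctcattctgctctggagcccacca
Nfkbia, chr12:55492598-55492897, minus strand: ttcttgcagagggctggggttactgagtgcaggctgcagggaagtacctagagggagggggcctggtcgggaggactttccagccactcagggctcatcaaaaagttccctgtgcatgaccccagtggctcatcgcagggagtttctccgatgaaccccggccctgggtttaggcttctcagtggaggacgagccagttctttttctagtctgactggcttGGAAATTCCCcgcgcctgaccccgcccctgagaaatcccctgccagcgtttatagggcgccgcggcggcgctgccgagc
Tnfaip3, chr10:19015361-19015660, minus strand: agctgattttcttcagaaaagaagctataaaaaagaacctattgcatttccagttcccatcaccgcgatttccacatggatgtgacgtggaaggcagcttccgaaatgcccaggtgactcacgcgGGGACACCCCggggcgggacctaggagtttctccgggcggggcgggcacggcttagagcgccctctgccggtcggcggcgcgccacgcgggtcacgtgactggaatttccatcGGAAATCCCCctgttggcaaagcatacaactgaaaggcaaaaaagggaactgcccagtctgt
Socs3, chr11:117969317-117969616, minus strand: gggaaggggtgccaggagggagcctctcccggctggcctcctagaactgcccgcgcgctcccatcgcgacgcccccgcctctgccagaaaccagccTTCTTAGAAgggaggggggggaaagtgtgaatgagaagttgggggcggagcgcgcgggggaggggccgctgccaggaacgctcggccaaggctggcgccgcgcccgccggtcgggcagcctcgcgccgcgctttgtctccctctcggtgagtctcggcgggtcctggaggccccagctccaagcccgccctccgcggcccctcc
Zfp36, chr7:28379179-28379478, minus strand: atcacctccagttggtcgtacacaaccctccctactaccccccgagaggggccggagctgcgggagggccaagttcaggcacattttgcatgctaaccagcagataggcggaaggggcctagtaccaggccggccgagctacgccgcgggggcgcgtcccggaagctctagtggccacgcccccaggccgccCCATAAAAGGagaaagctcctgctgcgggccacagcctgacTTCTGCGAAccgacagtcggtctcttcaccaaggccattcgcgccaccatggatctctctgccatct

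A kappaB match was found in 5 of the 10 genes (Ptx3, Il6, Lif, Nfkbia and Tnfaip3), and 8.46% of all 32851 promoter windows hold one. In Ptx3 a pair of overlapping matches lies across the start site, the first beginning 1 base before it. In Il6 the match begins 44 bases before the start, in Nfkbia 29 bases before it on the opposite strand, and in Tnfaip3 matches begin 125 and 12 bases before it. The STAT motif was found in Socs3, 154 bases before the start, and in Zfp36, 17 bases before it (8.3% of all windows). The CArG box was found in Zfp36 alone of the 10, 58 bases before the start (1.63% of all windows). The AP-1 motif TGANTCA was found in Il6, Il1rn, Lif and Tnfaip3 (7.81% of windows), the C/EBP motif TTGCNNAA in Ptx3 and Il6 (10.8%), and the TATA box TATAAA in Il1b, Tnf, Il1rn, Nfkbia and Tnfaip3 (13.6%). The ATF4 composite element TGATGNAA was found in 1 of the 10, in the second of the Tnfaip3 windows (3.97% of windows), and the cyclic AMP response element TGACGTCA in none of them (1.79% of windows). Distances are from the RefSeq start of each window. For Ptx3, Lif, Il1rn, Tnfaip3, Socs3 and Zfp36 that start differs from the GENCODE gene bounds given below. The Socs3 and Zfp36 windows lie inside those bounds. So do the second of the Tnfaip3 windows, with the ATF4 match, and the Il1rn window with the TATA box. Nearly all of the Tnfaip3 window shown above lies inside them too. A match describes these letters in these windows and shows no binding.

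The 3' untranslated regions of the same genes differ in the AU-rich nonamer TTATTTATT, the sequence that tristetraprolin binds best. In the longest annotated 3' untranslated region of each gene (GENCODE M21), given for 9 of the members, Tnf held 5 such nonamers, Lif 2, and Nfkbia and Zfp36 1 each. Ptx3, Il6, Il1b, Il1rn and Socs3 held none, although Il6 held 10 and Il1b 4 of the shorter pentamer ATTTA. Among all genes with a region of 80% to 125% of the same length, a nonamer was present in 4.13% for Tnf, 14.8% for Lif, 2.66% for Nfkbia and 4.2% for Zfp36. A 30-base site around the first nonamer of each of these 4 genes is shown, with the nonamers in capitals.
Tnf, chromosome 17: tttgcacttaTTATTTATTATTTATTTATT
Lif, chromosome 11: aaaggggcctTTATTTATTatttaaaactt
Nfkbia, chromosome 12: ggaccacgttTTATTTATTgtgcttttgat
Zfp36, chromosome 7: tatgacgactTTATTTATTgtattaagatt

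The set split into well-expressed and barely expressed genes. Ptx3 and the 4 feedback genes were between 2.57 and 498.4 FPKM in all libraries and were higher in every Atf4AKO library than in any Atf4WT library. The 5 cytokine and antagonist genes lay under 3 FPKM, apart from Il1b in 1 library at 12.4 FPKM. Of these, Il6 and Il1rn were higher without overlap between groups, whereas Il1b, Tnf and Lif overlapped. In all, 7 of the 10 members had every Atf4AKO library above every Atf4WT library, and none had every one below. Among the 12818 genes that averaged 0.5 FPKM or more, 8.21% lay wholly above and 8.34% wholly below. As this contrast was used to choose the members, nothing is read from their count. Of the members, 8 reached that mean, and Tnf and Lif did not. In limma's test over these genes at an adjusted p of 0.05, 0.0156% (2 genes) passed as higher in Atf4AKO and 0% as lower, and no member was among them. The targeted gene Atf4, with a log2 change of -1.14 and no overlap, did not pass either. A gene that did not pass is therefore not shown to be unchanged. At an unadjusted p under 0.05 stood 646 genes higher and 630 lower, 1276 in all. The median log2 change, Atf4AKO minus Atf4WT on the log2(FPKM + 1) scale, was 0.65 over all 10 members and 0.0046 over all genes tested.

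**Figure D1:**
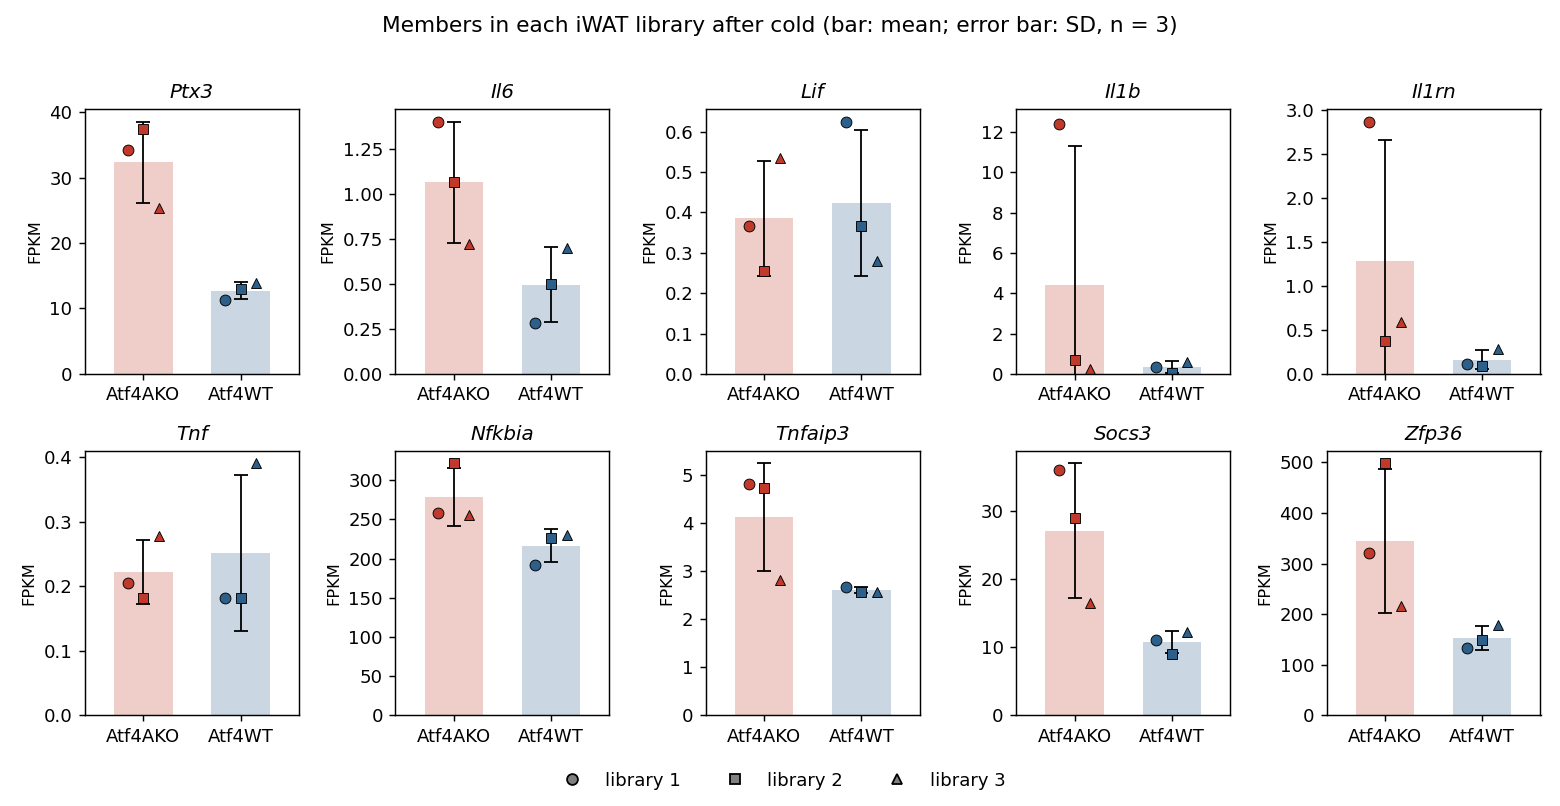
FPKM of the 10 members in each library, Atf4AKO in red and Atf4WT in blue, with the library number shown by the marker; bars are means and error bars SD (n = 3), cut off at 0 where the SD exceeds the mean. Ptx3, Nfkbia, Tnfaip3, Socs3, Zfp36, Il6 and Il1rn do not overlap between groups, and the Il1b mean of Atf4AKO rests on library 1 at 12.4 FPKM.

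Ptx3 (chromosome 3, 66219910 to 66225805, plus strand, GRCm38) is made on demand by macrophages, fibroblasts, endothelial cells and adipocytes, and its protein binds complement C1q and microbes. Its level was 34.2, 37.4 and 25.4 FPKM in Atf4AKO, against 11.3, 12.9 and 13.9 FPKM in Atf4WT. The lowest Atf4AKO library thus stood well above the highest Atf4WT library. The means were 32.3 ± 6.18 FPKM in Atf4AKO and 12.7 ± 1.27 FPKM in Atf4WT (SD, n = 3 each), a ratio of 2.55. The log2 change was 1.27 (SE 0.18). Over the 16 alternative settings and left-out libraries, some of which cannot change a log2 change, it stayed between 1.13 and 1.43.

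The short pentraxins and the other long ones gave little signal in this tissue. Crp, which encodes C-reactive protein, was at most 0.348 FPKM in any library, and Apcs, serum amyloid P component, and Ptx4 were listed at 0 in all 6. The neuronal pentraxin genes Nptx1, Nptx2 and Nptxr reached at most 0.0956, 0.219 and 0.704 FPKM. Ptx3 was therefore the one pentraxin gene well above 1 FPKM here. Tnfaip6 encodes TSG-6, which joins pentraxin 3 to the hyaluronan matrix. It was at 29.9, 37.8 and 11.6 FPKM in Atf4AKO, against 12, 8.09 and 11.4 FPKM in Atf4WT. The first and second Atf4AKO libraries were high and the third lay within the Atf4WT range (limma adjusted p = 0.5). The hyaluronan synthase gene Has1 was at 3.88 ± 2.02 FPKM in Atf4AKO and 2.48 ± 0.672 FPKM in Atf4WT (SD, n = 3 each; limma adjusted p = 0.574), and Itih2, an inter-alpha-trypsin inhibitor heavy chain that is linked to hyaluronan, was at 0.419 ± 0.281 and 0.874 ± 0.925 FPKM in the same order (adjusted p = 0.7).

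Nfkbia (chromosome 12, 55489410 to 55492647, minus strand) was among the most abundant members. Its level was 257.6, 321.5 and 256.1 FPKM in Atf4AKO, against 191.8, 226.1 and 230.4 FPKM in Atf4WT. The gap between the groups, from 256.1 down to 230.4 FPKM, was narrow. The mean was 278.4 ± 37.3 FPKM in Atf4AKO and 216.1 ± 21.2 FPKM in Atf4WT (SD, n = 3 each), 1.29 times as high, and the log2 change was 0.36 (SE 0.14). After rescaling all libraries to equal sums of FPKM, which moved the median of all genes to -0.12, the log2 change of Nfkbia was 0.21.

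Tnfaip3 (chromosome 10, 19000910 to 19015657, minus strand) had a far lower level. It was at 4.8, 4.72 and 2.82 FPKM in Atf4AKO, against 2.67, 2.57 and 2.57 FPKM in Atf4WT. The Atf4WT libraries were almost alike, with a coefficient of variation of 2.04%, and the third Atf4AKO library lay just above them. The ratio of means was 1.58 and the log2 change 0.48 (SE 0.20). The ratio of Tnfaip3 to Nfkbia within a library, both being per length, was 0.0186, 0.0147 and 0.011 in Atf4AKO, against 0.0139, 0.0114 and 0.0112 in Atf4WT, so the groups overlapped in this ratio.

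Socs3 (chromosome 11, 117966079 to 117970047, minus strand) was at 35.9, 28.9 and 16.4 FPKM in Atf4AKO, against 11, 8.96 and 12.2 FPKM in Atf4WT. Atf4AKO 1 was far above Atf4AKO 3, yet all 3 exceeded every Atf4WT library. Means were 27.1 ± 9.86 FPKM in Atf4AKO and 10.7 ± 1.63 FPKM in Atf4WT (SD, n = 3 each), a ratio of 2.53. The log2 change was 1.20 (SE 0.34), and it was 0.97 without the first Atf4AKO library.

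Zfp36 (chromosome 7, 28376784 to 28380253, minus strand) was at 320.7, 498.4 and 216.2 FPKM in Atf4AKO, against 132.4, 149.8 and 179.3 FPKM in Atf4WT. Here the second Atf4AKO library was the highest, and the third again the nearest to the Atf4WT range. The ratio of means was 2.24, with a log2 change of 1.09 (SE 0.37) that was 0.78 without the second Atf4AKO library and 1.38 without the third. Zfp36 was 1.24, 1.55 and 0.844 times as high as Nfkbia in the Atf4AKO libraries, against 0.69, 0.663 and 0.778 times in the Atf4WT libraries, without overlap.

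Il6 (chromosome 5, 30013114 to 30019981, plus strand), the gene of the main gp130 cytokine, was at 1.4, 1.07 and 0.724 FPKM in Atf4AKO, against 0.284, 0.499 and 0.702 FPKM in Atf4WT. Atf4AKO 3 and Atf4WT 3 were nearly equal. Multiplied by relative depth, the 6 Il6 values stood in whole-number ratios, as 21, 15 and 10 in Atf4AKO against 5, 7 and 10 in Atf4WT, each within 0.0205 of a whole number. Atf4AKO 3 and Atf4WT 3 thus tied at 10 in these units, with a relative depth of 0.933 in Atf4AKO 3 and 0.963 in Atf4WT 3. The true fragment numbers may be multiples of these and are not known. Of the 5 low members Il6 and Il1b gave such ratios, and no whole-number ratio was found for Tnf, Il1rn and Lif. The log2 change of Il6 was 0.46 (SE 0.18), a size that depends on the pseudocount, since it was 0.99 with a pseudocount of 0.1.

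Lif (chromosome 11, 4257557 to 4272514, plus strand), a second gp130 cytokine gene, did not go the way of Il6. It was at 0.366, 0.254 and 0.536 FPKM in Atf4AKO, against 0.625, 0.366 and 0.279 FPKM in Atf4WT, and the groups overlapped fully. Its log2 change was -0.036 (SE 0.13). Lif had a mean under 0.5 FPKM and was not part of the test over all genes.

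Il1b (chromosome 2, 129364570 to 129371139, minus strand) was set by 1 library. It was at 12.4, 0.676 and 0.23 FPKM in Atf4AKO, against 0.361, 0.0565 and 0.612 FPKM in Atf4WT. The first Atf4AKO library was 18.3 times as high as the next highest, and the other 5 libraries were mixed between groups. In the same depth-scaled ratios the values stood as 234, 12 and 4 in Atf4AKO against 8, 1 and 11 in Atf4WT, each within 0.127 of a whole number. The log2 change of 1.19 (SE 1.10) was 0.12 without Atf4AKO 1.

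Il1rn (chromosome 2, 24336853 to 24351494, plus strand) encodes the antagonist that occupies the IL-1 receptor without signalling. It was at 2.86, 0.378 and 0.594 FPKM in Atf4AKO, against 0.114, 0.0849 and 0.288 FPKM in Atf4WT. The same Atf4AKO library stood out, but the others also lay above the Atf4WT libraries. The log2 change of 0.82 (SE 0.47) was 0.36 without Atf4AKO 1. The ratio of Il1rn to Il1b within a library was 0.231, 0.559 and 2.59 in Atf4AKO, against 0.315, 1.5 and 0.47 in Atf4WT, with no order by genotype.

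Tnf (chromosome 17, 35199381 to 35202007, minus strand) was low in all libraries. It was at 0.206, 0.182 and 0.278 FPKM in Atf4AKO, against 0.182, 0.182 and 0.391 FPKM in Atf4WT. The highest value was in an Atf4WT library, and the log2 change was -0.031 (SE 0.085). Tnf also missed the mean of 0.5 FPKM and was not tested. The signs of the differences of Tnf and Lif are not stable: each was positive in 3 of 16 alternatives, such as 0.047 for Tnf without Atf4WT 3 and 0.063 for Lif without Atf4WT 1.

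**Figure D2:**
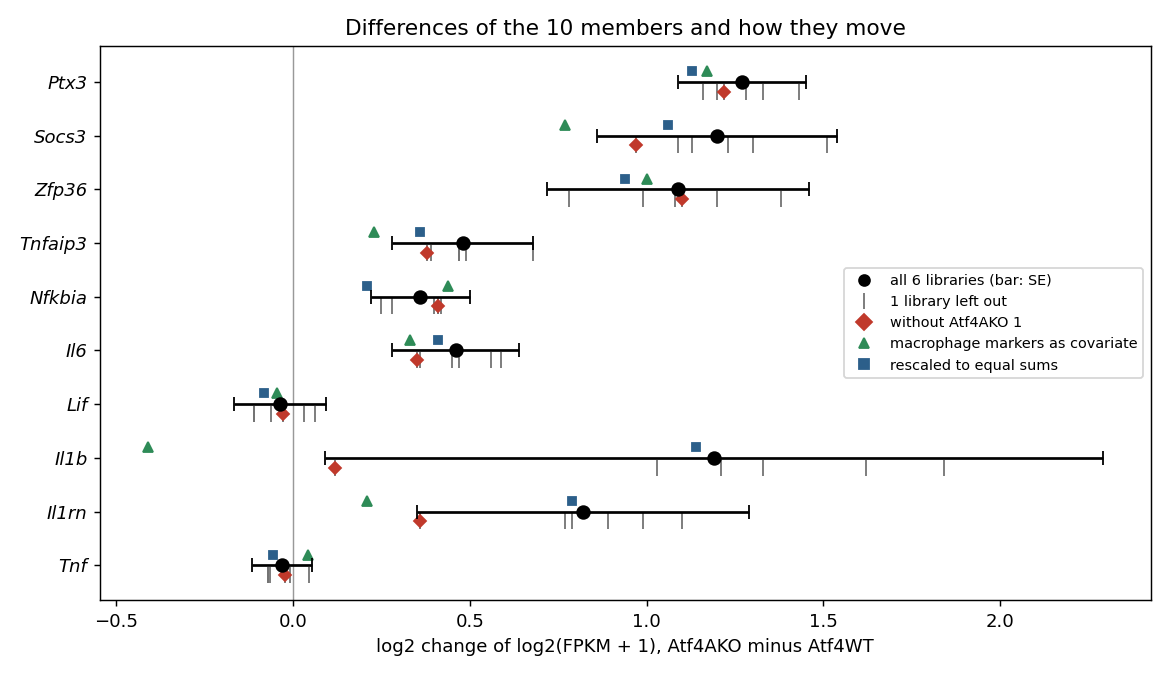
Log2 change of each member (Atf4AKO minus Atf4WT, from log2(FPKM + 1)) with its SE, and the same with 1 library left out, with the macrophage marker level as covariate and after rescaling to equal sums. Ptx3 stays between 1.13 and 1.43, while Il1b goes to 0.12 without Atf4AKO 1 and to -0.41 with the covariate.

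Markers of myeloid cells were highest in the library that was highest in Il1b and Il1rn. The summed level of 10 macrophage markers was 2408, 804.5 and 405.2 FPKM in Atf4AKO, against 498.9, 327.2 and 201.9 FPKM in Atf4WT. Monocyte markers summed to 270.1, 63.9 and 40.2 FPKM in Atf4AKO against 59.2, 28.5 and 30.7 FPKM in Atf4WT, and neutrophil markers to 271.6, 55.6 and 17.1 FPKM against 27.4, 16 and 27.9 FPKM. Atf4AKO 1, the library of high Il1b and Il1rn, was the highest in all 3 lists. It was the highest library for all 10 macrophage and all 5 monocyte markers and for 6 of 7 neutrophil markers, while Mpo, of neutrophil granules, was at 0 there. None of these markers was at 0 in every library, and 1 monocyte and 2 neutrophil markers were at 0 in some. Their part in the results was not tested.

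With the mean level of the macrophage markers apart from Adgre1 as a covariate, the log2 change was 1.17 for Ptx3, 1.00 for Zfp36, 0.77 for Socs3 and 0.44 for Nfkbia. It was 0.33 for Il6, 0.23 for Tnfaip3, 0.21 for Il1rn and -0.41 for Il1b. Immediate early genes, which answer to stimulation or tissue handling within minutes, summed to 1256, 1682 and 1150 FPKM over 14 genes in Atf4AKO, against 881.3, 876.2 and 922.7 FPKM in Atf4WT, without overlap. Of these 14 genes, 11 had a positive log2 change. The Atf4AKO range was wholly above the Atf4WT range for 8 and wholly below it for 1, beside 8.21% and 8.34% of all genes tested. Zfp36 followed the order of these sums within Atf4AKO, highest in the second library and lowest in the third, and so did Ptx3 and Nfkbia. Within Atf4WT the order differed: the sums were lowest in the second library, and Zfp36, Ptx3 and Nfkbia in the first. The part of the immediate early genes in the results was not tested. Adipocyte markers summed to 41156, 63886 and 50976 FPKM in Atf4AKO, against 34608, 49817 and 50316 FPKM in Atf4WT, and overlapped between groups. Fibroblast and preadipocyte markers summed to 1619, 1139 and 934 FPKM in Atf4AKO, against 1032, 618.6 and 598.5 FPKM in Atf4WT. The groups overlapped, and all 7 genes had a higher mean in Atf4AKO. The sums of other lists overlapped too, among them endothelial markers (322.7 to 475.1 FPKM in Atf4AKO, 298 to 383.2 FPKM in Atf4WT), skeletal muscle markers (4.31 to 6022 FPKM in Atf4AKO, 5.03 to 621.9 FPKM in Atf4WT) and epithelial markers (0.518 to 91.3 FPKM in Atf4AKO, 0.145 to 566.9 FPKM in Atf4WT).

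**Figure D3:**
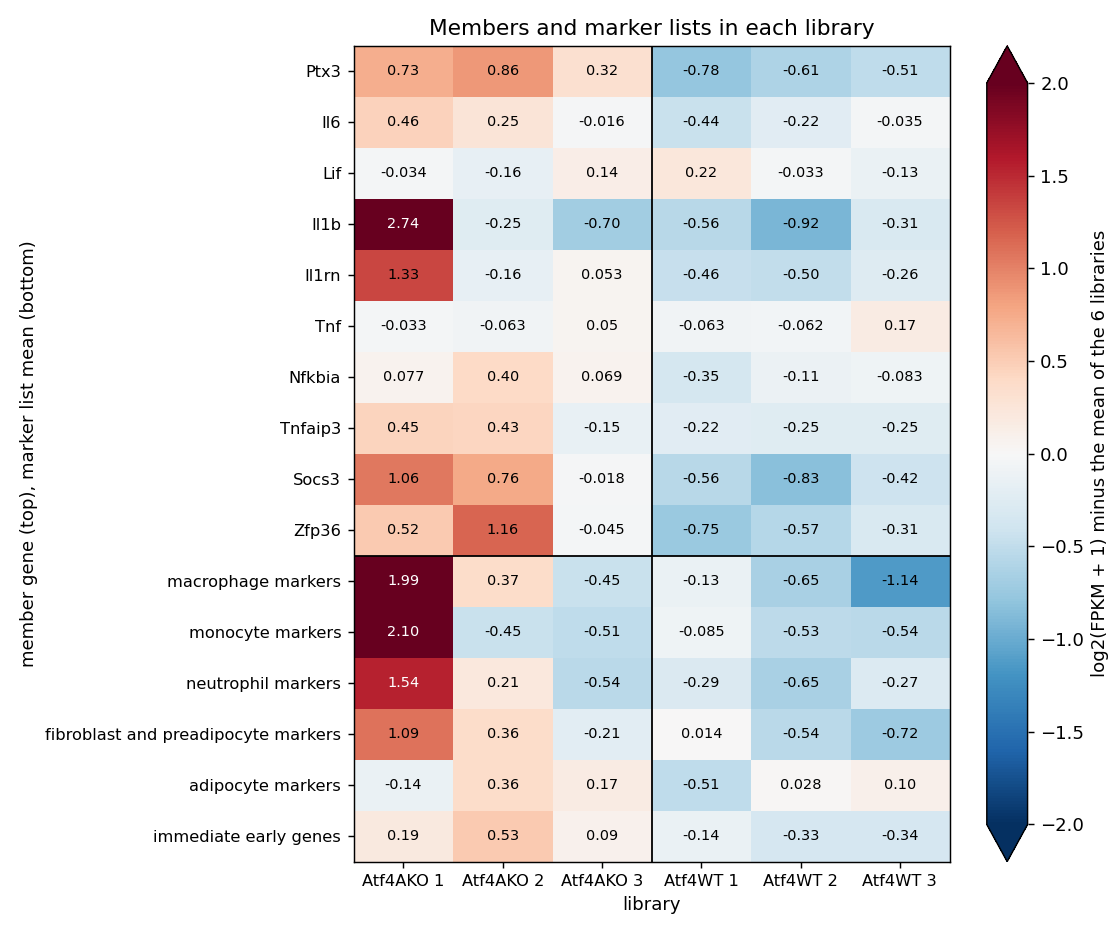
Level of each member (top) and mean level of each marker list (bottom) in the 6 libraries, as log2(FPKM + 1) minus the mean of the 6 libraries; Atf4AKO libraries are left of the line. Atf4AKO 1 has the highest Il1b (2.74), Il1rn (1.33) and macrophage level (1.99), and Atf4AKO 2 the highest Zfp36 (1.16), Ptx3 (0.86) and immediate early level (0.53).

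The genes whose levels were distributed over the 6 libraries most like Ptx3 were Ccl7, Gamt, Fgl2, Arid5b and Bmper, out of 12178 compared. Genes with symbols of Gm and a number, or ending in Rik, were left out of the ranking. Likeness was the mean absolute difference of log2(FPKM + 1) levels, each centred on its gene's mean. It was 0.07 for the chemokine gene Ccl7, 0.11 for Gamt, an enzyme of creatine synthesis, and 0.13 for Fgl2, a fibrinogen-like protein. Arid5b, which encodes a DNA-binding cofactor, followed at 0.16, and Bmper, whose protein binds BMP ligands, at 0.17. Among the members, Zfp36 stood at rank 9 (0.19) and Socs3 at rank 17 (0.22), whereas Il6 was at rank 589, Nfkbia at 1020 and Il1b at 10788. Ranks of low genes depend on the pseudocount. With 0.1, Il6 was at rank 105 and Il1rn at 7143 in place of 749, while Zfp36 was at 12 and Socs3 at 22. Fgl2, the one of these 5 that has the highest level, was at 59.9, 62.9 and 39 FPKM in Atf4AKO, against 25.9, 22.4 and 26.3 FPKM in Atf4WT.

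Around the members, 188 other genes of the same pathways were followed in 12 lists, of which 153 were tested. None passed over all genes (limma adjusted p of 0.5 or more), and 27 had an unadjusted p under 0.05, beside 1276 of all 12818 genes tested. The median log2 change of the 153 was 0.10, beside 0.0046 over all genes. For 25 of the 153 the Atf4AKO range was wholly above the Atf4WT range, and for 8 it was wholly below, beside 8.21% and 8.34% of all genes tested. Without Atf4AKO 1 the median was 0.037 for the IL-1 family, -0.15 for the TNF superfamily, -0.044 for the other feedback genes and -0.092 for the JAK-STAT3 list. It was -0.076 for the IL-6 family, -0.075 for the IKK list, 0.068 for the NF-kB subunits and 0.049 for the other target genes. The decay list stood at 0.038, the receptors at 0.13 and the Toll-like list at 0.22. The list of pentraxins and hyaluronan partners stood at 0.64, beside 0.44 with all libraries. Only 3 of its genes were tested, Tnfaip6, Has1 and Itih2, and none of them is a pentraxin gene.

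Receptors for these cytokines ranged widely in level. Il1r1, the signalling receptor of IL-1, was at 66.1, 112.4 and 50.4 FPKM in Atf4AKO, against 25.8, 34.9 and 33.8 FPKM in Atf4WT. Every Atf4AKO library was above every Atf4WT library, and the log2 change of 1.18 (SE 0.30) did not pass (limma adjusted p = 0.5). Il6ra, the IL-6 receptor chain, was at 53.7 ± 10.2 FPKM in Atf4AKO and 34.4 ± 1.76 FPKM in Atf4WT (SD, n = 3 each; limma adjusted p = 0.5), also without overlap. Sigirr, an inhibitory receptor of the IL-1 family, was the reverse, with 0.77 ± 0.353 FPKM in Atf4AKO and 2.23 ± 0.726 FPKM in Atf4WT and no overlap (adjusted p = 0.5). Tnfrsf1b, the second TNF receptor, was at 36.1 ± 1.42 and 30.7 ± 1.94 FPKM in Atf4AKO and Atf4WT, without overlap (adjusted p = 0.504). Tnfrsf1a, the main TNF receptor, at 129.7 ± 14.5 and 111.5 ± 14.5 FPKM, the gp130 gene Il6st, at 40.6 ± 2.18 and 36 ± 4.68 FPKM, and Lifr, at 24.2 ± 3.45 and 26.5 ± 7.34 FPKM, overlapped between Atf4AKO and Atf4WT. The 95% interval of the log2 change was -0.14 to 0.57 for Tnfrsf1a, -0.13 to 0.48 for Il6st and -0.61 to 0.40 for Lifr. Of 13 receptor genes 8 had a positive log2 change.

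Of 18 Toll-like receptor genes and adaptors 16 had a positive log2 change, with a median of 0.33 that was 0.061 with the macrophage covariate. Cd14, the lipopolysaccharide coreceptor and itself a gene of macrophages, was at 184.2, 142.9 and 75.9 FPKM in Atf4AKO, against 66.2, 43.2 and 33.2 FPKM in Atf4WT (limma adjusted p = 0.5). Tlr7, a receptor for single-stranded RNA, was at 5.33 ± 3.59 FPKM in Atf4AKO and 1.5 ± 0.624 FPKM in Atf4WT, and the adaptor gene Myd88 was at 28 ± 1.86 and 22.5 ± 0.389 FPKM (SD, n = 3 each; adjusted p = 0.5 for both).

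Among the NF-kB subunits themselves, Rela and Nfkb1 had means close to each other in the 2 groups. Rela was at 43.3 ± 3.33 FPKM in Atf4AKO and 40.7 ± 1.85 FPKM in Atf4WT, and Nfkb1 at 9.87 ± 0.665 and 9.79 ± 1.22 FPKM (SD, n = 3 each). The 95% interval of the log2 change was -0.17 to 0.34 for Rela and -0.28 to 0.31 for Nfkb1. Relb, at 4.24 ± 0.802 and 3.27 ± 0.281 FPKM in Atf4AKO and Atf4WT, did not overlap (limma adjusted p = 0.515), and Rel, at 0.65 ± 0.256 and 0.366 ± 0.0594 FPKM, did. Among 17 genes of the IKK complex and its upstream kinases, 7 had a positive log2 change and 10 a negative one. Map3k8, the kinase Tpl2, was at 8.12 ± 1.74 and 5.19 ± 0.891 FPKM in Atf4AKO and Atf4WT, Ripk1 at 10.7 ± 1.61 and 7.82 ± 0.684 FPKM, and the adaptor gene Traf2 at 3.25 ± 0.877 and 4.6 ± 0.176 FPKM (limma adjusted p = 0.5 for each).

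Of 17 other feedback genes of NF-kB 9 had a positive log2 change, with a median of 0.02. Tax1bp1, an adaptor of A20, was at 95.4 ± 11.4 FPKM in Atf4AKO and 75.7 ± 3.63 FPKM in Atf4WT (SD, n = 3 each; limma adjusted p = 0.5). Nfkbiz, an inducible nuclear IkB, was at 21.7 ± 4.76 and 16.7 ± 1.01 FPKM (adjusted p = 0.505), and Nfkbib, which encodes IkB-beta, at 41 ± 6.79 and 31.9 ± 2.84 FPKM (adjusted p = 0.504), in the same order. In the JAK-STAT3 and SOCS list 10 of 20 were positive. Stat3 was at 80 ± 14.3 FPKM in Atf4AKO and 69.8 ± 6.13 FPKM in Atf4WT, and its log2 change had a 95% interval of -0.21 to 0.57. Jak1 was at 35.8 ± 5.1 and 27 ± 2.1 FPKM, Pias1, an inhibitor of STAT, at 7.29 ± 0.576 and 5.81 ± 0.59 FPKM, and Socs5 was lower, at 3.15 ± 0.595 FPKM in Atf4AKO and 4.85 ± 0.794 FPKM in Atf4WT (limma adjusted p = 0.5 for each).

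Of 14 genes of cytokine messenger RNA decay 7 had a positive log2 change, with a median of 0.0093. Zfp36l1, a paralog of Zfp36 that also binds AU-rich elements, was at 125.6, 162.4 and 107.9 FPKM in Atf4AKO, against 75.2, 83.4 and 84.3 FPKM in Atf4WT. The groups did not overlap, and the second Atf4AKO library was again the highest. Zfp36l2 was at 68.3 ± 12.6 FPKM in Atf4AKO and 49 ± 14.8 FPKM in Atf4WT, and Tia1, a silencer of translation at AU-rich sites, at 3.51 ± 1.16 and 5.67 ± 1.27 FPKM (SD, n = 3 each). The limma adjusted p was 0.5 for Zfp36l1, 0.522 for Zfp36l2 and 0.5 for Tia1.

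Of 10 genes of the IL-1 family and the inflammasome all had a positive log2 change, with a median of 0.41 that was -0.17 with the macrophage covariate. Nlrp3, the inflammasome sensor, was at 2.27, 0.963 and 0.535 FPKM in Atf4AKO, against 0.298, 0.305 and 0.301 FPKM in Atf4WT, again highest in Atf4AKO 1 (limma adjusted p = 0.5). Casp4 was at 9.4 ± 2.35 and 6.33 ± 1.8 FPKM and Il18 at 6.25 ± 3.47 and 3.8 ± 0.882 FPKM in Atf4AKO and Atf4WT (adjusted p = 0.505 and 0.604). In the IL-6 family 2 of 5 were positive. Osm, oncostatin M, was at 6.1, 3 and 1.07 FPKM in Atf4AKO, against 1.08, 0.79 and 1.37 FPKM in Atf4WT (adjusted p = 0.504). Cntf was at 10.5 ± 3.39 FPKM in Atf4AKO and 16.2 ± 3.73 FPKM in Atf4WT (SD, n = 3 each; limma adjusted p = 0.5). In the TNF superfamily 4 of 6 were positive, with Ltb at 0.751 ± 0.476 and 1.46 ± 0.704 FPKM, Fasl at 0.396 ± 0.113 and 0.653 ± 0.151 FPKM, and Tnfsf13b at 1.58 ± 0.437 and 1.13 ± 0.224 FPKM in Atf4AKO and Atf4WT (adjusted p = 0.534, 0.553 and 0.561).

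Among 27 other genes known to be induced by NF-kB, the log2 change was positive for 18, with a median of 0.25 that was 0.049 without Atf4AKO 1. Cd83, an activation marker of antigen-presenting cells, was at 4.63, 10 and 3 FPKM in Atf4AKO, against 1.51, 1.96 and 1.05 FPKM in Atf4WT, without overlap (limma adjusted p = 0.5). F3, tissue factor, was at 43 ± 4.26 FPKM in Atf4AKO and 29.8 ± 6.73 FPKM in Atf4WT, and Tnfaip2 at 16.5 ± 2.41 and 11.8 ± 2.57 FPKM (SD, n = 3 each; adjusted p = 0.5 for both). Rescaling to equal sums moved the median of all genes to -0.12. The medians of the NF-kB subunits, the TNF superfamily, the other feedback genes, the JAK-STAT3 list and the decay list then became negative, at -0.061, -0.03, -0.08, -0.13 and -0.13. Those of the IKK list and the IL-6 family, negative before rescaling too, were -0.21 and -0.16. The medians of the remaining lists stayed positive.

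**Figure D4:**
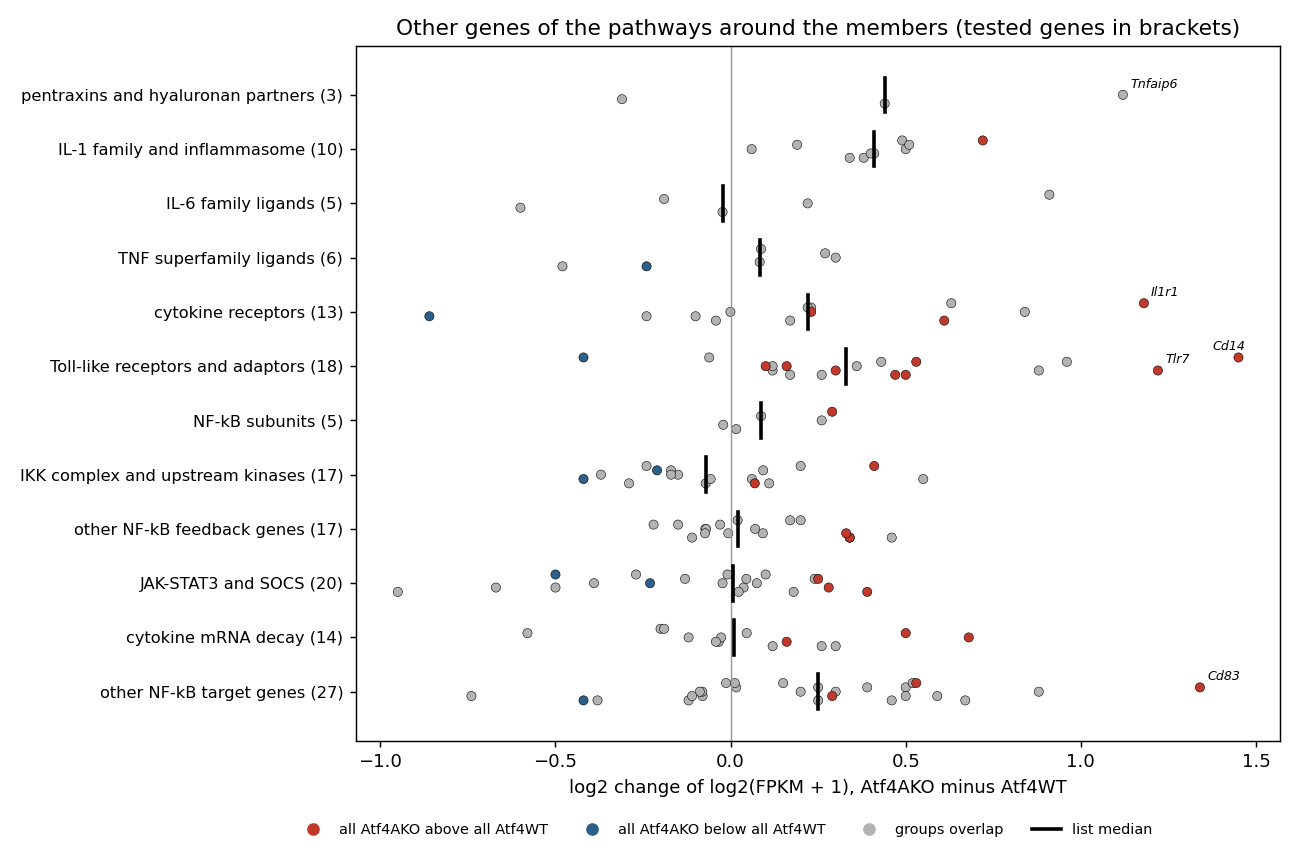
Log2 change, Atf4AKO minus Atf4WT, of the tested genes of 12 pathway lists around the members, 1 point per gene and a bar at each list's median; colours mark genes whose groups do not overlap. Il1r1 (1.18) and Cd14 (1.45) lie far to the right, and the medians of the feedback, JAK-STAT3 and decay lists lie at 0.02, 0.0071 and 0.0093.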

How the data were processed

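Total RNA of 6 iWAT samples went into libraries of a stranded mRNA kit, per the labels' protocols. The authors deposited FPKM, 1 value per gene symbol and library. The genome build was mm10, per the submitters' processing notes. Which aligner, quantifier and gene models were used, and whether counting was stranded, is not given in the sources used here. Columns were matched to samples by their descriptions and groups were taken from the titles. FPKM is not a count, so limma 3.58.1 in R 4.3.3 (trend) was run on log2(FPKM + 1) for the 12818 genes averaging 0.5 FPKM or more, with Benjamini-Hochberg adjustment over all of them. The SE of a member is that of its own 6 values, that of another gene is limma's. No fragment totals are given; relative depth, read from steps of values under 0.15 FPKM, ran from 0.933 to 1.19, and absolute depth is unknown, which leaves values without counting intervals. In simulated data with 200 of 12818 genes changed, limma recovered 57.2% at a 2-fold and 84.4% at a 4-fold change of FPKM + 1. There were 6.8 false calls a run. Each gene was drawn independently around its own spread, without the swings that many genes share in the real libraries. These shares may therefore not hold for the real data. Members and lists were chosen with earlier results of these data known. Named genes are the members, the 3 of smallest p in each list, fixed receptors and factors, and the 5 most like Ptx3, apart from 1 list gene and 1 site not reported here; the other pentraxin genes, and the marker Mpo, were named after their values were seen. Il36a, Il36b and Il36g were matched through synonyms. So was the macrophage marker Adgre1, as Emr1, in the marker sums and levels, while the macrophage covariate left it out. Promoters are RefSeq's, coordinates and 3' regions GENCODE's (GRCm38).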

Additional observations from a re-analysis of the deposited data

How the results depend on the processing

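Of 160 member values recomputed under alternatives, 6 moved by more than the spread between libraries, 4 of them with the macrophage covariate. The changes of filter, the fit without trend and the replicate block cannot change a member's log2 change. Their values are among the 160, equal the main ones by design and say nothing of stability. The median log2 change of the 10 members (0.65) was 1.04 with a pseudocount of 0.1, 0.87 with 0.5, 0.28 with the macrophage covariate and between 0.37 and 0.83 with 1 library left out, lowest without Atf4AKO 1. The 2 genes called higher over all genes became 0 with the macrophage covariate, 1 with the muscle covariate and 0 to 3 with 1 library left out, where 0 to 2 genes were called lower. A fit with a block for replicate number called 0 genes higher. Every replicate number is present in both groups, so the block could not move the members' median from 0.65. Same-numbered libraries of the 2 groups deviated from their group means with correlations of 0.0818, 0.404 and 0.0691. Differently numbered libraries were not compared, so a pairing or batch by number was not tested. No gene of the wider pathway was called under any of the 16 alternatives; the smallest limma adjusted p was 0.0936, for Cish without Atf4AKO 3. Of the 5 genes most like Ptx3, 4 were found with a pseudocount of 0.1. Among promoters of tested genes only, the shares were 10.4% for kappaB, 6.93% for STAT, 2.94% for the cyclic AMP element, 5.45% for AP-1, 2.36% for the ATF4 element, 1.38% for CArG, 8.69% for C/EBP and 7.51% for TATA. The cause of these shifts was not tested. The 3 libraries a group and low FPKM of Il6, Il1b, Il1rn, Tnf and Lif limit the precision.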
